A study of Mus musculus with 23 samples.

Results

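The 9 genes described here encode structural and anchoring proteins of the sperm tail: Akap3, Akap4, Fscb, Cabyr, Ropn1 and Ropn1l of the fibrous sheath, and Odf1, Odf2 and Odf4 of the outer dense fibres. They were taken by name, with no measured value in the choice, from a table of 27466 genes, and all 9 were found in it. RNA was sequenced from whole testes of CD-1 mice and from testis explants kept in culture. In vivo testes were 6.5, 10.5, 22.5 or 36.5 days post partum (dpp). Those of 6.5 dpp were either fresh (FT) or had been thawed after controlled slow freezing (CSF), and the older ones were fresh. Explants all came from 6.5 dpp testes and were grown for 4, 16 or 30 days (D4, D16, D30) in a medium with retinol and a serum replacement. They were fresh except for 1 D30 library from CSF tissue. Several explants were pooled for a cultured replicate after their necrotic centre had been cut away, so a cultured library is not 1 animal, and the labels name no genetic change in any group. By age D4 corresponds to 10.5 dpp, D16 to 22.5 dpp and D30 to 36.5 dpp, and the study compared cultured tissue with testes of these ages.

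The fibrous sheath is a cage of longitudinal columns and ribs around the axoneme in the principal piece of the flagellum, and the outer dense fibres are stiff rods that run along the axonemal doublets. Both are built in elongating spermatids, from messages that haploid germ cells make in large amounts. AKAP4 and AKAP3 are the main sheath proteins and anchor protein kinase A and its relatives there, and the sheath also holds enzymes of glycolysis close to the motor.

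Of the 23 deposited columns, 21 libraries were used. The 6.5 dpp stage had 4, of which 1 was fresh and 3 were CSF. D30 also had 4, 10.5 dpp, 22.5 dpp and D4 had 3 each, and 36.5 dpp and D16 had 2 each. Their totals ran from 28351546 to 69029328 counts. The column labelled 6.5 dpp fresh replicate 3 holds the same count as replicate 2 for every gene, so both were counted as 1 library. The library labelled 6.5 dpp fresh replicate 1 was left out because of its rank correlations over genes. They were 0.984 with D16 replicate 1, 0.978 with 22.5 dpp replicate 2 and only 0.865 with 6.5 dpp fresh replicate 2. The values of this library are given in the closing section. Among the libraries used, D16 replicate 2 and 22.5 dpp replicate 2 stand below the others of their stage. The sum of 5 round spermatid markers (Acrv1, Acr, Spaca1, Catsper1 and Tssk2) was 33.6 CPM (counts-per-million) in D16 replicate 2 against 167 in replicate 1, and it was 107 in 22.5 dpp replicate 2 against 260 and 267 in the others. Results that rest on D16 are therefore also given with either library left out. Nothing in the labels says whether replicates were separate animals, so p-values measure the spread between these libraries. In bulk tissue, fewer cells of a type and less RNA per cell cannot be told apart. Against 6.5 dpp, where 3 of 4 libraries were CSF, freezing cannot be fully told apart from age or culture either.

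The 9 genes together held 88.3 ± 22.1 CPM (SD, n = 4) at 6.5 dpp and 110 ± 4.71 (n = 3) at 10.5 dpp. At 22.5 dpp they held 2509 ± 878 CPM (n = 3) and at 36.5 dpp 12088 ± 297 (n = 2), which is 1.19% and 1.23% of all counts in the latter 2 libraries. In culture the sum was 113 ± 4.64 CPM at D4 (n = 3), 1139 ± 723 at D16 (n = 2) and 2028 ± 868 at D30 (n = 4). Before 22.5 dpp and D16 most of this CPM sum was 1 gene: Odf2 made up 83.8% to 93.9% of it in each library of 6.5 dpp, 10.5 dpp and D4. At 36.5 dpp Odf2 made up 25.2% and 42.9%. CPM takes no account of gene length. Per kilobase of annotated exon the means at 6.5 dpp were 8.09 for Odf2 and 4.55 for Ropn1l. None of the 9 was called between 10.5 and 6.5 dpp by edgeR's quasi-likelihood test with Benjamini-Hochberg adjustment over 19255 genes, at an adjusted p under 0.05, where 1.14% of all genes were called and 2705 genes, with no member among them, had an unadjusted p under 0.05.

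**Figure D1:**
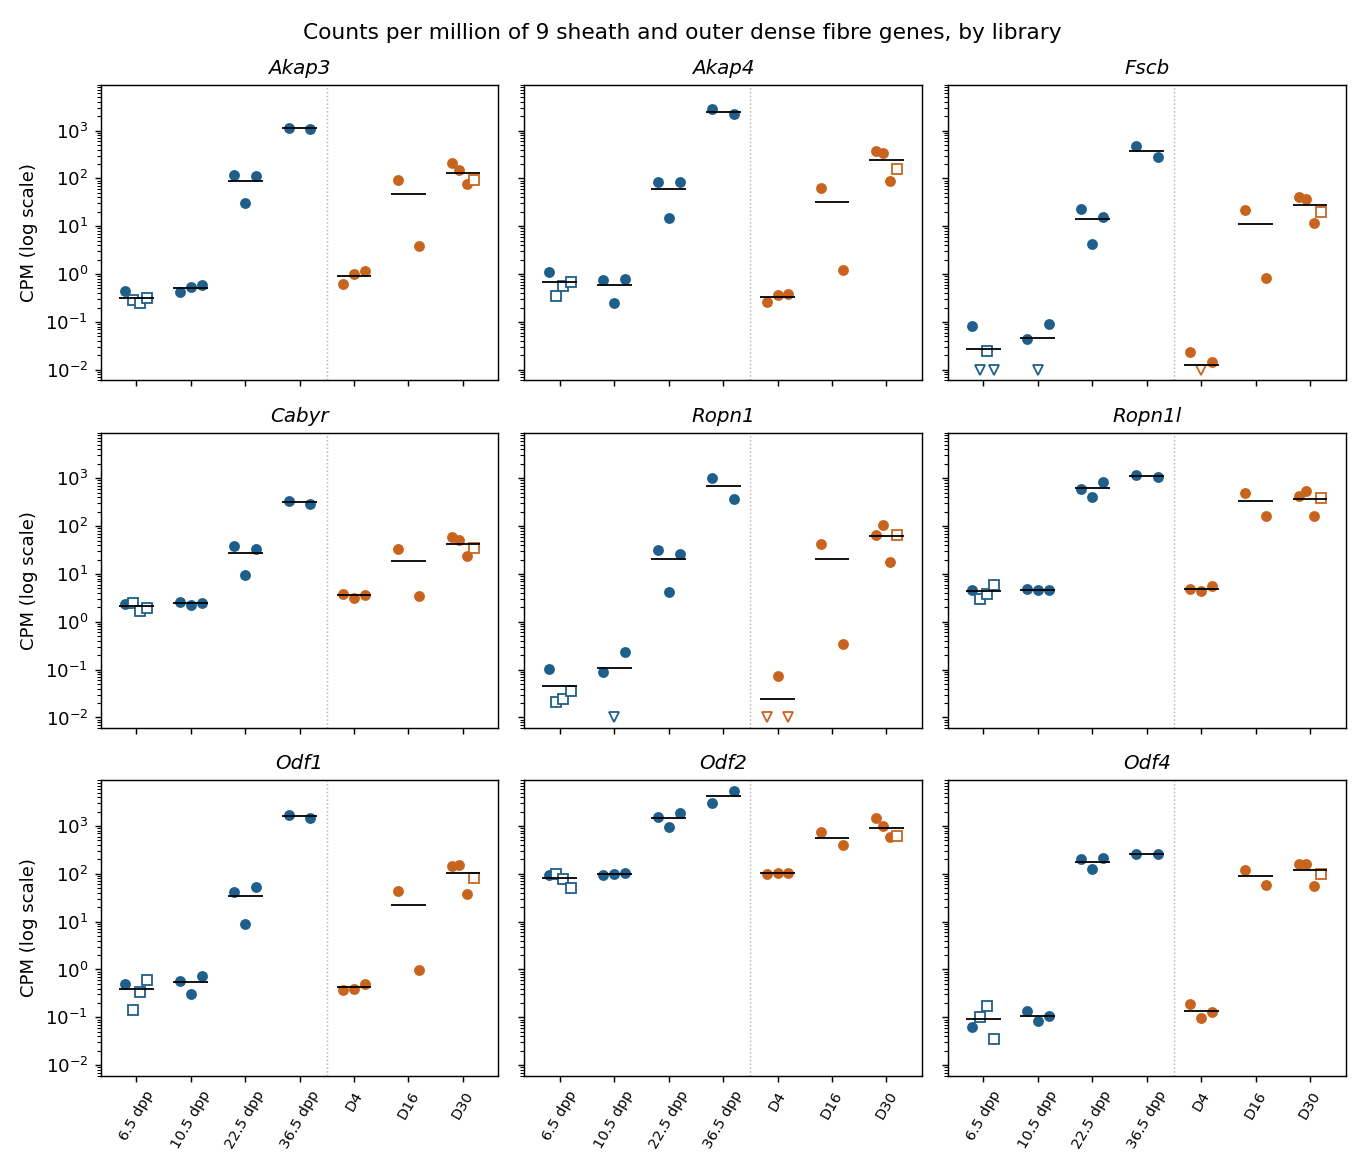
Level in CPM on a log axis for each of the 9 genes in the 21 libraries; circles are fresh and open squares CSF libraries, open triangles at the foot stand for a count of 0, black bars are stage means, and in vivo stages are blue and culture days orange. All 9 rise by 22.5 dpp and again by 36.5 dpp, and both D16 libraries are far apart for Akap3, Akap4, Fscb, Cabyr, Ropn1 and Odf1.

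Between 10.5 and 22.5 dpp all 9 genes rose, where 33.6% of the genes tested were called higher. Their median change was 7.35 on the log2 scale, against 0.06 over all genes tested. Between 22.5 and 36.5 dpp all 9 rose again, with 23.3% of genes called higher, a median of 4.12 and a median over all genes of -0.13. In both steps the libraries of the older age lay above all libraries of the younger for each of the 9, which held for 33.3% of all genes in the step to 22.5 dpp and for 21.7% in the step to 36.5 dpp. The tests use TMM scaling, and on plain library totals the median gene stood at -0.51 relative to it in this step, -0.29 in the step to 22.5 dpp, 0.15 for D16 against 22.5 dpp and 0.63 for D30 against 36.5 dpp, all on the log2 scale. On plain totals Odf4 (0.50, adjusted p = 0.26) and Ropn1l (0.86, adjusted p = 0.088) were no longer called in the step to 36.5 dpp. Odf4 also lost its call without 22.5 dpp replicate 1 or 2 or either 36.5 dpp library, and Ropn1l without 22.5 dpp replicate 2 or either 36.5 dpp library, with changes of 0.75 to 1.15 and of 1.08 to 1.65, while each other member kept its call.

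Akap4, the X-linked gene of the most abundant sheath protein (chrX:7067515-7078609, GRCm38.p6, + strand), had 1.09, 0.354, 0.56 and 0.67 CPM in the 6.5 dpp libraries and 0.763, 0.25 and 0.80 at 10.5 dpp. It had 83.1, 14.6 and 83.0 CPM at 22.5 dpp and 2769 and 2223 at 36.5 dpp. No library of a later age in vivo reached down into the range of an earlier one, apart from 6.5 and 10.5 dpp, which overlap. Its mean at 36.5 dpp was 41.4 times that at 22.5 dpp, a log2 change of 5.83 (standard error 1.07, adjusted p = 0.00029, edgeR).

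Akap3, which pairs with AKAP4 in the sheath (chr6:126853098-126874308, + strand), was at 0.243 to 0.438 CPM at 6.5 dpp and 0.427 to 0.582 at 10.5 dpp. It reached 120, 31.1 and 111 CPM at 22.5 dpp and 1138 and 1073 at 36.5 dpp, and the last rise was 4.12 on the log2 scale (standard error 0.80, adjusted p = 0.00046, edgeR). Akap3 thus stood above Akap4 in CPM in each 22.5 dpp library and below it in each 36.5 dpp library: the ratio of Akap4 to Akap3 was 0.691, 0.468 and 0.747 at 22.5 dpp, and 2.43 and 2.07 at 36.5 dpp.

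Cabyr, a calcium-binding sheath protein that becomes phosphorylated on tyrosine during capacitation (chromosome 18, bases 12740825 to 12755146), was never near 0. It had 1.70 to 2.45 CPM at 6.5 dpp, 38.6, 9.52 and 33.5 at 22.5 dpp and 335 and 296 at 36.5 dpp. A processed pseudogene, Gm7599, overlaps it on the opposite strand over 796 bases, and the strand setting of the counting is not given in the sources used here.

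Fscb, whose product binds CABYR (chr12:64471333-64474898, - strand, a single annotated exon), had the lowest mean CPM of the 9 in every stage except 36.5 dpp, where Cabyr and Odf4 were lower. It had 0 to 5 counts in each library of 6.5 dpp, 10.5 dpp and D4. It then had 23.1, 4.21 and 15.6 CPM at 22.5 dpp and 483 and 275 at 36.5 dpp, a change of 5.19 on the log2 scale (standard error 0.93, adjusted p = 0.00025, edgeR). Its early values are close to the limit of 3 counts in a library that is used here as the floor of detection, which is 0.0435 to 0.106 CPM.

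Ropn1 and Ropn1l encode related ropporins, small proteins that dock on AKAPs, but their time courses differed. Ropn1 (chr16:34649832-34678610, + strand) had 31.0, 4.26 and 26.7 CPM at 22.5 dpp and 1012 and 367 at 36.5 dpp, the widest gap between the 2 oldest libraries of any of the 9. Ropn1l (chr15:31441210-31453689, - strand) was already at 609, 400 and 830 CPM at 22.5 dpp and went to 1176 and 1055. The change of the last step was 5.51 for Ropn1 (standard error 1.19, adjusted p = 0.0011) and 1.35 for Ropn1l (standard error 0.46, adjusted p = 0.022, edgeR). Within a library, Ropn1 was 0.0106 to 0.051 of Ropn1l in CPM at 22.5 dpp and 0.86 and 0.348 of it at 36.5 dpp. Reads that fit both genes equally, or the pseudogene Gm6361 that lies on the same strand within Ropn1l over 435 bases, could not be assigned with certainty.

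Odf1, a main protein of the outer dense fibres (chr15:38219203-38226735, + strand), had 0.146 to 0.60 CPM at 6.5 dpp, 42.4, 8.91 and 52.7 at 22.5 dpp and 1722 and 1473 at 36.5 dpp. Its last step was the steepest of the 9 at 5.99 on the log2 scale (standard error 1.04, adjusted p = 0.00019, edgeR). Odf2 (chr2:29889014-29931746, + strand), which also has a role at centrioles in other cells, was at 49.6 to 99.5 CPM at 6.5 dpp, 1565, 948 and 1898 at 22.5 dpp and 2988 and 5279 at 36.5 dpp. Odf4 (chr11:68921835-68927081, - strand) was at 0.0353 to 0.17 CPM at 6.5 dpp, 200, 126 and 215 at 22.5 dpp, and 255 and 257 at 36.5 dpp. Its step to 22.5 dpp, 10.95 on the log2 scale (standard error 0.60, adjusted p = 3.4e-10), was the largest of the 9, and its step to 36.5 dpp, 0.99 (standard error 0.41, adjusted p = 0.0496, edgeR), the smallest.

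The genes therefore differ in how much of their 36.5 dpp level was in place at 22.5 dpp. Odf1 (2.17%), Akap4 (2.41%), Ropn1 (3.00%), Fscb (3.77%), Akap3 (7.92%) and Cabyr (8.62%) had under 10% of it in CPM, and these 6 are called the late genes below. Odf2 (35.6%), Ropn1l (55.0%) and Odf4 (70.6%) are called the early genes. No gene lay between 8.62% and 35.6%, and the highest 22.5 dpp library of any late gene stood at 12.2% (Cabyr) while the lowest of any early gene stood at 22.9% (Odf2). The split follows neither structure, since each group holds sheath and fibre genes, nor the paralogue pair Ropn1 and Ropn1l. It was made after the values were seen and is a description.

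**Figure D2:**
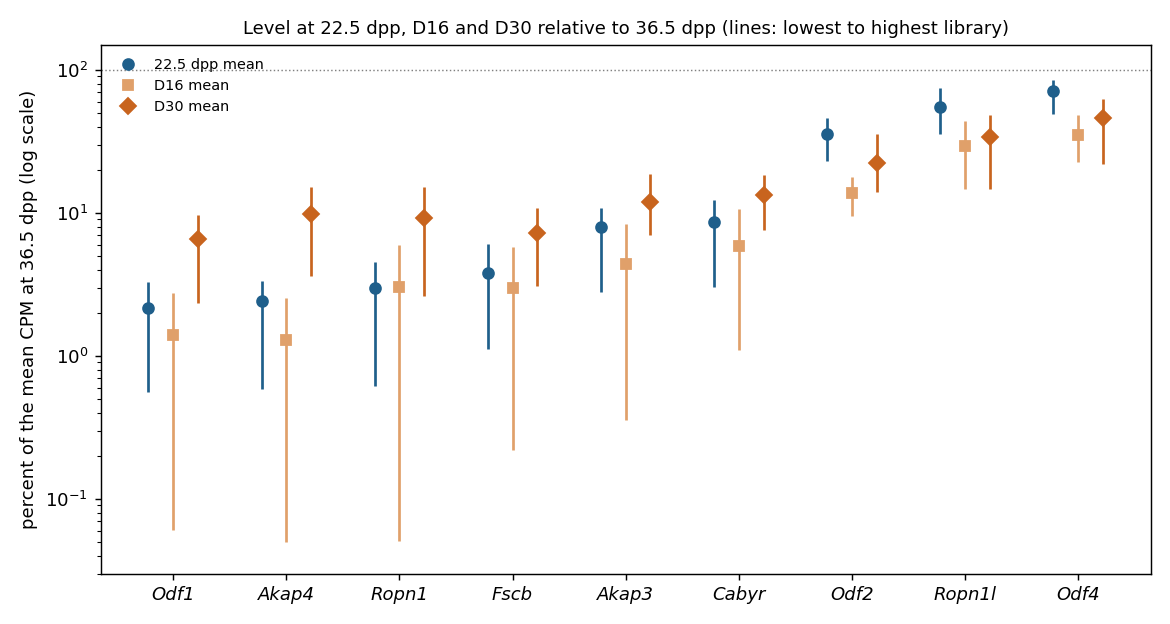
Mean CPM at 22.5 dpp, D16 and D30 in percent of the mean at 36.5 dpp on a log axis, genes ordered by the 22.5 dpp value; vertical lines run from the lowest to the highest library. Odf2, Ropn1l and Odf4 stand at 35.6% to 70.6% at 22.5 dpp and the other 6 at 2.17% to 8.62%, and at D30 all 9 lie between 6.57% and 46.0%.

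The stretches around an annotated start are shown for 4 late and 2 early genes because 1 short motif was found in the former and not in the latter. RefSeq promoter windows (GRCm38.p6, 250 bases before to 50 after a start) were at hand for 7 of the 9 genes, all but Odf1 and Cabyr. The start is the first base of the gene in 5 of the stretches, but that of Ropn1 is an internal start, 1379 bases inside the gene as placed above, and the 4 starts of Odf2 lie 706 to 1049 bases inside it. The stretches run 5′ to 3′ on the strand of the gene, from 120 bases before the start to 20 bases from it, and capitals mark TGACNTCA on either strand. They lie at chr6:126852978-126853117 (Akap3), chrX:7067395-7067534 (Akap4), chr12:64474879-64475018 (Fscb), chr16:34651091-34651230 (Ropn1), chr15:31453670-31453809 (Ropn1l) and chr11:68927062-68927201 (Odf4).
Akap3: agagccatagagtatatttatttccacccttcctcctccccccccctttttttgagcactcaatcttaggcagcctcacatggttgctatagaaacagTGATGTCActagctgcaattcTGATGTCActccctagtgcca
Akap4: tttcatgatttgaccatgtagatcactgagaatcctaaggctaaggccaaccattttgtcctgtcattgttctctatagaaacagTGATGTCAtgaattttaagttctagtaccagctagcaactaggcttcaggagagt
Fscb: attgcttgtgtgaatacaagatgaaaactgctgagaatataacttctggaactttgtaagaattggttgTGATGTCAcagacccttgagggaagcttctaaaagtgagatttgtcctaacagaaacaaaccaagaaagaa
Ropn1: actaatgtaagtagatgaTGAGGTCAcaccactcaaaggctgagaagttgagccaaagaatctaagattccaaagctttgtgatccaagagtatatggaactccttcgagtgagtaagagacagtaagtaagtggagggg
Ropn1l: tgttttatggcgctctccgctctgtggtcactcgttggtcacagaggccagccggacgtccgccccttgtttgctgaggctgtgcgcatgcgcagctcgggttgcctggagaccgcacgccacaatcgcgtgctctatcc
Odf4: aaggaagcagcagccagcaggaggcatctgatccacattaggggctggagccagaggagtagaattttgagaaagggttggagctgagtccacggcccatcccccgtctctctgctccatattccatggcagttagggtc

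TGACNTCA, the cyclic AMP response element TGACGTCA with 1 base left free, was in the windows of all 4 late genes that have one, Akap3, Akap4, Fscb and Ropn1, and in none of Odf2 (4 windows), Odf4 and Ropn1l. Counting both strands it is in 8.83% of all 32851 windows, or in 10.0% of genes with a window. In Akap3 (2 matches), Akap4 and Fscb the printed strand reads TGATGTCA and in Ropn1 it reads TGAGGTCA, that is TGACATCA and TGACCTCA on the other strand. The matches begin 22 and 1 bases before the start in Akap3, 35 in Akap4 and 51 in Fscb. In Ropn1 the match begins 102 bases before the internal start and so lies within the gene, which sets it apart from the other 3. Akap3 and Akap4 further share the run ctatagaaacagTGATGTCA, 20 identical bases that occur in these 2 of all windows and no other, while the remaining pairs of the 15 that can be made share runs of 6 to 10 bases. Of the 11 motifs searched on both strands, the full element TGACGTCA (1.79% of windows) and its variant TGACGTNA (2.93%) were in no member, TGAGGTCA (2.17%), which overlaps TGACNTCA, was in Ropn1, and TGACG (20.8%) was in Odf2. TATAAA (13.6%), GTTACC (7.21%) and the X-box that extends GTTGCC (0.563%) were in no member, GTTGCC itself (12.5%) was in Ropn1l, AAGTGA (16.02%) in Fscb, and CCAAT (37.4%) in Akap3, Akap4, Fscb and Odf2. The motifs were searched with the time courses known, a match of letters is not a binding site, and no binding was measured here.

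In culture none of the 9 was called at D4, either against 6.5 dpp tissue (20.9% of all genes called in either direction) or against 10.5 dpp (8.10%), and no member had an unadjusted p under 0.05 in either. With only the compared stages in the fit, Akap3 (1.57 and 0.97 on the log2 scale) and Cabyr (0.80 and 0.66) were called higher at D4 in both. Akap4 was at 0.255, 0.36 and 0.377 CPM and Odf4 at 0.186, 0.0959 and 0.13 in the D4 libraries. Between D4 and D16 all 9 were called higher, where 18.4% of genes were, with a median of 6.12 on the log2 scale against 0.03 over all genes tested.

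At D16 the replicates split by gene class. Replicate 1 had 92.7 CPM of Akap3, 63.2 of Akap4, 21.9 of Fscb, 33.6 of Cabyr, 41.3 of Ropn1 and 43.9 of Odf1. Replicate 2 had 3.96, 1.25, 0.83, 3.45, 0.35 and 0.962 CPM of the same genes in that order. For the late genes the libraries differed 9.73-fold (Cabyr) to 118-fold (Ropn1), and replicate 2 lay within the D4 range of 3.19 to 3.83 CPM for Cabyr. For the early genes they differed far less: Odf2 had 738 and 395 CPM (1.87-fold), Odf4 123 and 57.7 (2.13-fold) and Ropn1l 493 and 164 (3.01-fold). Without replicate 1, 5 of the 9 remained called against D4 (Akap3, Fscb, Ropn1l, Odf2 and Odf4), and Cabyr stood at -0.02 on the log2 scale. Without replicate 2 all 9 were called.

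Fscb and Ropn1 were within the floor at D4, with 2 and 3 counts in all 3 libraries together, so their fitted changes are no measure of size. Pooled over libraries, D16 over D4 was 816 for Fscb (95% interval 225 to 6751) and 994 for Ropn1 (340 to 4827). These ratios were carried by D16 replicate 1, which held 870 of the 908 counts of Fscb and 1643 of the 1659 of Ropn1. Replicate 2 alone stood at 63.9 times D4 for Fscb (16.5 to 546) and 17.9 times for Ropn1 (5.13 to 96.0). The exact intervals cover counting error only.

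Against 22.5 dpp testes of the same age, D16 explants had 1 member called lower, Odf2, where 11.8% of genes were, and all 9 estimates were negative with a median of -1.03 (-0.08 over all genes tested). Odf2 fell by 1.55 on the log2 scale (standard error 0.44, adjusted p = 0.018, edgeR), with both D16 libraries under the lowest 22.5 dpp library. Odf4 stood at -1.17 (adjusted p = 0.051), also without overlap, which 21.5% of genes showed in this direction. These calls depend on single libraries. Without D16 replicate 1 all 9 were called lower and without 22.5 dpp replicate 2 there were 3, whereas without D16 replicate 2, 22.5 dpp replicate 1 or 22.5 dpp replicate 3 the count was 0 in the edgeR fit.

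At D30 the mean CPM of each of the 9 genes was above its D16 mean, from 1.15-fold (Ropn1l) to 7.55-fold (Akap4). Akap4 stood at 379, 346 and 90.4 CPM in the fresh replicates and at 158 CPM in the CSF library, all above both D16 libraries, and it was the only member of which this was true (8.12% of all genes). Odf1 had 148, 154, 37.4 and 80.9 CPM in the same order, and Akap3 205, 153, 77.2 and 93.7. Fresh replicate 3 was the lowest D30 library for 9 of 9 genes and the CSF library lay above it each time, so the frozen library stood within the range of the fresh ones. No member was called between D30 and D16, where 1.79% of all genes were. All 9 estimates were positive, with a median of 1.30 (0.01 over all genes tested), 2 of them with an unadjusted p under 0.05. The largest were Akap4 (2.95, standard error 1.05, adjusted p = 0.21) and Odf1 (2.26, standard error 0.98, adjusted p = 0.35), and the smallest Ropn1l (0.23, standard error 0.45, adjusted p = 0.96, edgeR). Without D16 replicate 1 all 6 late genes were called higher at D30, by 3.67 (Cabyr) to 7.68 (Akap4) on the log2 scale. Without D16 replicate 2 none was, and Ropn1l and Odf4 stood at -0.37 and -0.04. DESeq2 called Akap4 alone (adjusted p = 0.030).

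Compared with 36.5 dpp testes, all 9 genes were lower at D30, where 35.0% of genes were called lower. The median was -3.68 on the log2 scale, against -0.03 over all genes tested. All 4 D30 libraries lay below both 36.5 dpp libraries for each of the 9, as they did for 25.2% of all genes. The late genes fell the most, with Odf1 at -4.54 (standard error 0.87, adjusted p = 0.00022), Fscb at -4.40, Ropn1 at -4.06, Akap4 at -3.97, Akap3 at -3.68 and Cabyr at -3.52. Odf2 was at -2.79, Ropn1l at -2.18 and Odf4 at -1.74 (standard error 0.37, adjusted p = 0.00059, edgeR). In CPM, D30 had 6.57% (Odf1) to 13.4% (Cabyr) of the 36.5 dpp mean of the late genes, and 22.2% (Odf2), 33.9% (Ropn1l) and 46.0% (Odf4) of the early ones. TMM scaling lowers these shares, to 4.30% for Odf1 and 30.0% for Odf4, since library totals and TMM differ in this comparison by 0.63 for the median gene. Leaving out any 1 of the 6 libraries left all 9 called. With the 6.5 dpp library that was left out put back into the fit, 5 of the 9 were called here, 3 in the step from 22.5 to 36.5 dpp and 1 in that from D4 to D16, each in the same direction. The comparison of D30 with 36.5 dpp shares its 36.5 dpp libraries with that of 36.5 against 22.5 dpp. The late and early classes rest on the same 36.5 dpp means. The deeper fall of the late genes here was favoured by that choice and is no finding.

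**Figure D3:**
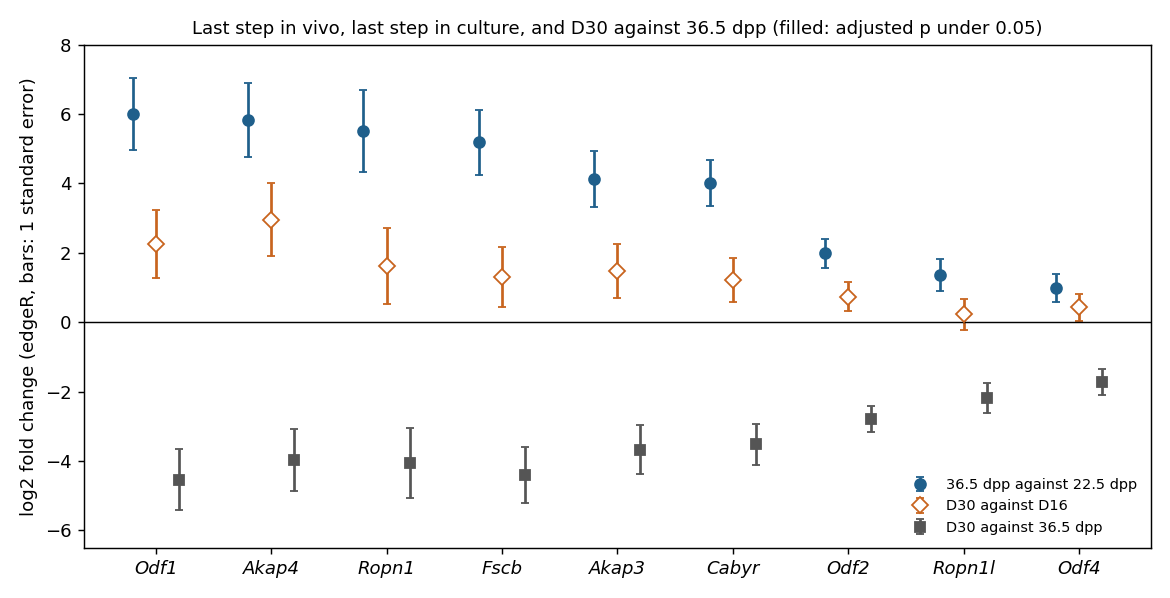
Log2 fold changes from edgeR with 1 standard error for the step from 22.5 to 36.5 dpp (blue circles), the step from D16 to D30 (orange diamonds) and D30 against 36.5 dpp (grey squares); filled symbols have an adjusted p under 0.05. The in vivo step runs from 5.99 (Odf1) down to 0.99 (Odf4), the culture step from 2.95 (Akap4) down to 0.23 (Ropn1l) with none called, and D30 against 36.5 dpp from -4.54 to -1.74 with all 9 called.

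The steps of culture and of the animal were compared directly as a difference of differences. From D4 to D16 against 10.5 to 22.5 dpp none of the 9 was called (9.61% of all genes were), but 7 of the 9 estimates were negative, with a median of -1.23 against -0.03 over all genes tested. Of the members 1, Odf2, had an unadjusted p under 0.05; DESeq2 called Odf2 alone. Without D16 replicate 1 there were 6 called lower, and without 22.5 dpp replicate 2 there was 1. From D16 to D30 against 22.5 to 36.5 dpp the rise in culture was smaller for 3 members, where 8.63% of all genes were called lower: Fscb by -3.89 on the log2 scale (standard error 1.15, adjusted p = 0.026), Odf1 by -3.73 (standard error 1.24, adjusted p = 0.042) and Cabyr by -2.79 (standard error 0.85, adjusted p = 0.030, edgeR). The other 6 were negative as well, between -3.88 (Ropn1) and -0.57 (Odf4). Without D16 replicate 1 none of the 9 was called and Akap3, Akap4, Ropn1, Odf1 and Odf4 had the opposite sign, by 0.12 (Odf4) to 2.05 (Ropn1). Without D16 replicate 2 there were 7 called, and without 22.5 dpp replicate 2 or 36.5 dpp replicate 1 the count was 0.

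D30 and 22.5 dpp, which differ in age, can be set side by side without a test. Late genes were higher at D30 in their means, Akap4 4.04-fold, Ropn1 3.05-fold, Odf1 3.03-fold, Fscb 1.92-fold, Cabyr 1.55-fold and Akap3 1.51-fold. Early genes were lower, with Odf4 at 0.652, Odf2 at 0.625 and Ropn1l at 0.616 of their 22.5 dpp means. Only for Akap4 did the libraries of these stages not overlap (90.4 to 379 CPM against 14.6 to 83.1, where 22.0% of all genes were higher without overlap). The late and early classes rest on the same 22.5 dpp means. Their opposite directions here were favoured by that choice and are no finding.

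Ratios inside a library do not depend on its scaling. The summed CPM of the 6 late genes over that of the 3 early genes was 0.143, 0.0492 and 0.11 in the 22.5 dpp libraries and 1.69 and 0.866 at 36.5 dpp. At D30 it was 0.436, 0.499 and 0.323 in the fresh libraries and 0.409 in the CSF library, above every 22.5 dpp and D16 library and below both of 36.5 dpp. At D16 it was 0.219 and 0.0175. Most of the early sum was Odf2, with 2988 of 4419 CPM in 36.5 dpp replicate 1 and 5279 of 6590 CPM in replicate 2. The sum of the late genes over that of the 5 round spermatid markers was 0.678 to 1.30 at 22.5 dpp, 1.78 and 0.322 at D16, 2.52 to 3.54 at D30 and 3.92 to 6.47 at 36.5 dpp. The sum of the early genes over the same markers was 9.12 to 13.8 at 22.5 dpp, 8.11 and 18.4 at D16, 6.59 to 7.82 at D30 and 3.83 to 4.53 at 36.5 dpp. The classes were chosen by the share of the 36.5 dpp level at 22.5 dpp. The direction between these ages was therefore largely set by that choice and is no finding. What the ratios add is where the cultured libraries lie, though the choice also favours a low ratio of late to early genes at 22.5 dpp.

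**Figure D4:**
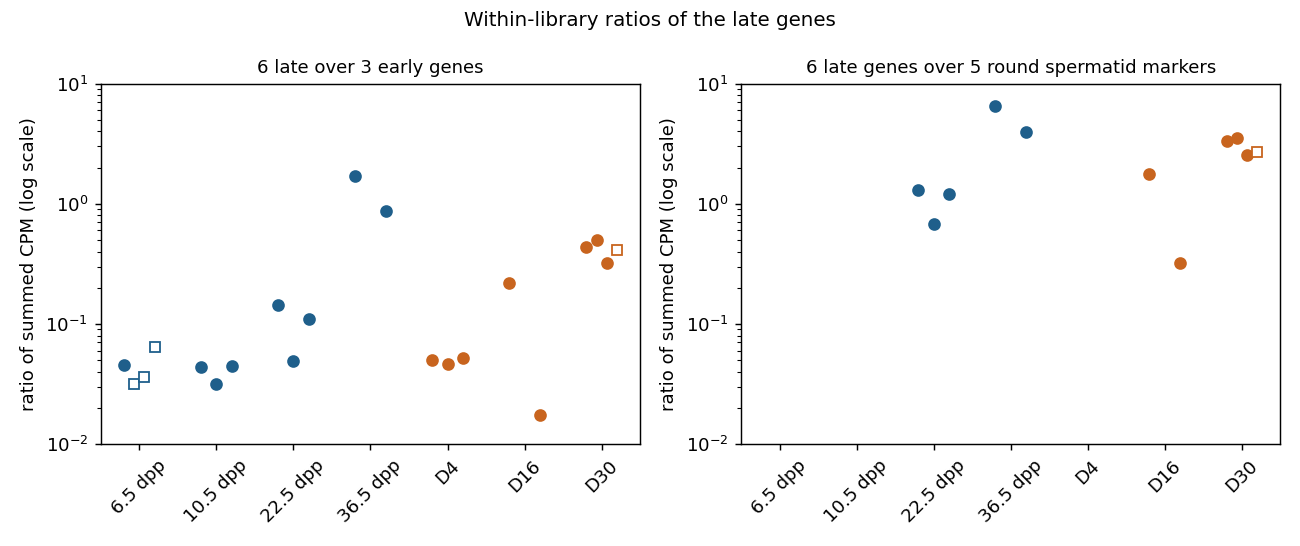
Ratios within each library on log axes, of the summed CPM of the 6 late to the 3 early genes (left) and of the 6 late genes to 5 round spermatid markers (right, stages from 22.5 dpp and D16 on); circles are fresh, open squares CSF libraries. The D30 libraries, at 0.323 to 0.499 on the left, lie between those of 22.5 dpp (up to 0.143) and 36.5 dpp (from 0.866).

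Marker genes of the cells that carry the tail moved with the members, and their part in the results was not tested. The sum of Prm1, Prm2, Tnp1 and Tnp2, which elongating spermatids use to compact chromatin, (all 4 above the floor from 22.5 dpp and D16 on) was 2.76 to 32.1 CPM at 22.5 dpp, 16208 and 21200 at 36.5 dpp, 4.87 and 9.85 at D16 and 331 to 1601 at D30. The round spermatid markers, all 5 above the floor in these stages, were at 1154 and 1455 CPM at 36.5 dpp and 102 to 268 at D30. D30 thus had 5.06% of the 36.5 dpp mean of these markers and 14.9% of that of the round spermatid markers, where 22.5 dpp had 0.102% and 16.2%. Fresh replicate 3, the lowest D30 library for the members, was also the lowest for both lists, at 331 and 102 CPM. Spermatocyte markers (Sycp1, Sycp3, Hormad1, Piwil1 and Spo11) were at 103% of the 36.5 dpp mean at D30 and at 238% at 22.5 dpp. Among somatic markers, D30 had 908% of the 36.5 dpp mean of 5 Sertoli cell markers, 682% of that of 4 peritubular markers and 24.0% of that of 5 Leydig cell markers. Other lists in percent of 36.5 dpp at D30 were 438% for spermatogonia, 303% for macrophages, 1016% for endothelium and 20.7% for multiciliated epithelium. The last list has 3 genes, of which 1 was at the floor at 36.5 dpp and D30. Its mean sum rose from 8.27 CPM at 10.5 dpp to 40.4 at 22.5 dpp and 144 at 36.5 dpp. Round spermatid markers rose over the same ages, so this list cannot be read as a measure of ciliated epithelium.

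Levels of different genes can be compared only per length. In RPKM (reads per kilobase of annotated exon at equal depth) the order at 22.5 dpp was Ropn1l 641, Odf4 155, Odf2 148, Odf1 31.4, Akap3 27.8, Akap4 19.9, Ropn1 15.4, Cabyr 10.9 and Fscb 4.25. At 36.5 dpp it was Odf1 1446, Ropn1l 1165, Akap4 825, Ropn1 513, Odf2 417, Akap3 351, Odf4 219, Cabyr 126 and Fscb 113. By these means Odf4 went from rank 2 to rank 7 and Odf1 from rank 4 to rank 1, but at 22.5 dpp the libraries of all neighbours in the order overlapped except Ropn1l and Odf4, and Odf2 and Odf1, so most ranks at that age are not firm. At D30 the order began as at 22.5 dpp, with Ropn1l 395 and Odf4 101, but Odf1 (95.0) and Akap4 (80.4) stood at ranks 3 and 5, on either side of Odf2 (92.7). Libraries of the neighbours Odf4, Odf1, Odf2 and Akap4 overlapped at D30. At 36.5 dpp those of Akap4 and Ropn1, Ropn1 and Odf2, Odf2 and Akap3, and Cabyr and Fscb overlapped, and the other neighbours did not. For Odf2 the length of 9919 bases joins 66 annotated exons of many transcripts, which lowers its RPKM.

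Over the 21 libraries the members' log2 CPM correlated with each other at Pearson's r of 0.874 (Cabyr and Odf4) to 0.995 (Akap4 and Odf1). This describes the libraries, since all points share depth, scaling and the same order of ages. The genes nearest to the mean profile of the 9 were Fam217a, Lrrc74a, Plcz1, Spata20 and Fam166c, with r of 0.996 to 0.997 among 19255 genes. Plcz1, the sperm factor that activates the egg, had a mean of 21.3 CPM at 22.5 dpp, 264 at 36.5 dpp, 10.1 at D16 and 35.0 at D30. With a prior count of 0.5 in place of 2 these genes took the 3rd, 21st, 45th, 2nd and 134th places, so the choice among them is loose. Each member's own nearest gene was another testis gene at r of 0.994 to 0.999, such as Gsg1 for Akap4, Ccdc63 for Akap3, Tex13a for Odf1, Tesk1 for Odf2 and Crisp2, a protein of the acrosome and the outer dense fibres, for Odf4. The nearest member was Odf1 for Akap4, Odf4 for Ropn1l and Akap3 for Odf2, at ranks 7, 258 and 335 by r among the genes tested. Over the 9, the rank of the nearest member ran from 4 (Odf1) to 335 (Odf2). Genes outside the 9 thus lay nearer to each member than any other member did.

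Other genes of the tail also differed in how much of their 36.5 dpp level was in place at 22.5 dpp. Some of them, Spa17 here and Pgk2 below, lay in the gap between the late and early groups. The split therefore holds for the members only. A list of 19 other tail genes was drawn up for the sheath and outer dense fibres, though not all of its genes belong to these structures. Of the 19, 18 were tested, since Odf3l2 did not pass the filter on low counts. Of these, 16 rose and 1 fell between 10.5 and 22.5 dpp (33.6% of all genes rose and 27.9% fell), and 14 rose between 22.5 and 36.5 dpp (23.3%). In culture 12 rose between D4 and D16 (18.4%), and 17 were lower at D30 than at 36.5 dpp (35.0%). Tcp11, Smcp, Spa17 and Oaz3 had the highest mean CPM of the list. Tcp11 had 758 CPM at 22.5 dpp and 2000 at 36.5 dpp, and Spa17 199 and 637, whereas Smcp of the mitochondrial capsule went from 28.0 to 1331 and Oaz3 from 19.8 to 1150. At D30 these genes stood at 493 (Tcp11), 161 (Spa17), 107 (Smcp) and 85.5 CPM (Oaz3).

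All 6 glycolytic enzymes of the sheath rose between 10.5 and 22.5 dpp (33.6% of all genes), and 4 rose between 22.5 and 36.5 dpp (23.3%). All 6 rose between D4 and D16 (18.4%) and were lower at D30 than at 36.5 dpp (35.0%). Ldhc, the germ cell lactate dehydrogenase, was early, with 3249 CPM at 22.5 dpp and 5330 at 36.5 dpp (log2 change 1.19, adjusted p = 0.051), and Gapdhs was late, with 27.0 and 1385 CPM (6.14, adjusted p = 3.1e-05, edgeR). Pgk2 had 254 and 1317 CPM and Aldoart2 30.2 and 458. At D30 Ldhc was at 2203, Pgk2 at 262, Gapdhs at 97.7 and Aldoart2 at 47.2 CPM.

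The subunits of protein kinase A, which AKAPs bind, were called in both directions. Between 10.5 and 22.5 dpp 1 of 6 rose and 4 fell, where 33.6% of all genes rose and 27.9% fell. Between 22.5 and 36.5 dpp 2 rose and 2 fell, which is near the 23.3% and 27.5% of all genes. Prkar2a, a type II regulatory subunit, fell by 1.29 on the log2 scale to 24.1 CPM at 22.5 dpp and rose by 3.65 to 209 at 36.5 dpp (standard error 0.21, adjusted p = 2.6e-09, edgeR). At D30 it was at 86.6 ± 10.7 CPM (SD, n = 4), lower than at 36.5 dpp by a log2 change of -1.92. Prkar2b moved the other way, from 46.4 CPM at 22.5 dpp to 11.7 at 36.5 dpp and 47.9 at D30. Prkar1a and the catalytic subunit Prkaca were not called between 22.5 and 36.5 dpp, with 411 and 391 CPM and 163 and 128 CPM.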

How the data were processed

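RNA of 21 libraries was analysed. The deposited table holds unnormalized read counts by gene. The authors selected polyA RNA, used a stranded kit, aligned single reads to GRCm38 with STAR 2.7.3a and assigned them to genes with HTSeq 0.12.4 (mode intersection-nonempty). The strand setting and the annotation release are not given in the sources used here. Genes were named and placed by NCBI identifier in RefSeq's GRCm38.p6, which held 27373 of the 27466 genes; those outside it take 0.0202% of the counts. Exon lengths and overlaps came from GENCODE M21.

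CPM was computed on library totals, and RPKM on the joined length of a gene's annotated exons. Tests used edgeR 4.0.16 in R 4.3.3: filterByExpr, TMM factors, 1 quasi-likelihood fit of 7 stages (frozen with fresh) and Benjamini-Hochberg adjustment over the 19255 genes that passed. All 9 members passed. On simulated counts with no other difference between stages, the fit was checked to recover known changes in both directions. The data hold larger shifts between stages, so this check covers the working of the fit and not its error rate here. Alternatives were other scalings, no filter, DESeq2 1.42.0, stricter thresholds (a log2 change of 2 and an adjusted p of 0.001), fresh libraries only, frozen and fresh apart, only the compared stages, a replicate block, the left-out library put back and each library left out. A stage with at most 3 counts in every library was treated as the floor. Likeness was Pearson's r of log2 CPM with a prior count of 2. Named were the 9 members, the 4 genes of highest mean CPM in each pathway list, and the genes with the highest likeness; genes of marker lists were summed. The members, lists and comparisons were chosen with earlier results of these data known. Sequences are RefSeq's. Plots were drawn with matplotlib 3.10.9.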

Additional observations from a re-analysis of the deposited data

Results flagged for a closer look

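The library labelled 6.5 dpp fresh replicate 1, which entered no comparison, had more of each of the 9 genes than any other 6.5 dpp library. It held 956 CPM of Odf2, 331 of Ropn1l and 127 of Odf4 among the early genes. Of the late genes it held 75.9 CPM of Akap3, 38.6 of Akap4, 27.8 of Cabyr, 22.1 of Odf1, 14.6 of Ropn1 and 14.5 of Fscb. Its ratio of late to early genes was 0.137, where the other 6.5 dpp libraries had 0.0318 to 0.0647. The D16 libraries had 0.219 and 0.0175, and those of 22.5 dpp 0.143, 0.0492 and 0.11, so the ratio lay within the range of both stages.

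For 3 genes the change from D16 to D30 in culture differed from that between 22.5 and 36.5 dpp by edgeR's test of the difference itself, as given above: Fscb by -3.89, Odf1 by -3.73 and Cabyr by -2.79 on the log2 scale. With fresh libraries alone 0 members were called, and without D16 replicate 1 Odf1 stood at 0.86. In the stages with 4 libraries, 6.5 dpp and D30, 18 sets of values of the members were searched for a library far from the others, and 0 were found.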

How the results depend on the processing

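The step to 22.5 dpp (9 genes higher) and the deficit at D30 against 36.5 dpp (9 lower) kept their direction under each alternative run, and all 9 calls in each except as follows. With the 6.5 dpp fresh replicate 1 put back, 3 members were called between 22.5 and 36.5 dpp, 1 between D4 and D16, 5 between D30 and 36.5 dpp, 0 between D16 and 22.5 dpp, and 0 in the difference of the late steps (D16 to D30 against 22.5 to 36.5 dpp). Under the stricter thresholds 5 of 9 were called between 22.5 and 36.5 dpp, 7 between D30 and 36.5 dpp, 8 between D4 and D16, and 0 both between D16 and 22.5 dpp and in the late steps. With only the compared stages in the fit, 2 were called at D4 against 6.5 dpp and 2 against 10.5 dpp, 0 between D16 and 22.5 dpp, 1 in the difference of the early steps (D4 to D16 against 10.5 to 22.5 dpp) and 0 in the late steps. RLE factors and DESeq2 each gave 2 calls between D16 and 22.5 dpp (Odf2 and Odf4), and DESeq2 1 between D30 and D16 and 1 in the early steps. In the late steps fresh libraries alone gave 0 calls and frozen and fresh apart 1. The cause of these differences was not tested.

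Leaving out each library in turn gave 5 to 9 calls between D4 and D16, 0 to 6 between D30 and D16, 0 to 9 between D16 and 22.5 dpp, 0 to 6 in the early steps and 0 to 7 in the late steps. The sign of single changes also turned. Between D4 and D16, Cabyr ran from -0.023 to 3.31. Between D30 and D16, Ropn1l ran from -0.37 to 1.27 and Odf4 from -0.040 to 1.10. Between D16 and 22.5 dpp, Fscb ran from -4.32 to 0.44, Cabyr from -3.20 to 0.13, Ropn1 from -6.10 to 0.82 and Odf1 from -5.39 to 0.17, and on plain library totals Ropn1 stood at 0.011. In the late steps Akap3 ran from -3.58 to 1.02, Akap4 from -3.85 to 1.86, Ropn1 from -4.87 to 2.05, Odf1 from -4.70 to 0.86 and Odf4 from -1.02 to 0.12. Where a stage kept 1 library, its spread was taken from the other stages.

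Deviations of libraries with the same replicate number correlated at a median of 0.016 over 52 pairs (-0.575 to 0.661). For 102 pairs with different numbers the median was -0.0074. Of 19 libraries, 10 correlated best with their own number. In stages with 2 libraries the deviations mirror each other, so these values cannot decide whether the numbers mark a pairing. With a replicate block, 2 members were called between D16 and 22.5 dpp, 1 in the late steps and 8 between 22.5 and 36.5 dpp. On TMM-scaled CPM the members summed to 96.6 at 10.5 dpp, 105 at D4 and 18527 at 36.5 dpp. Depth limits Fscb and Ropn1 before 22.5 dpp and at D4, and 2 libraries at 36.5 dpp and at D16 limit each comparison made with them.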
